A study of Homo sapiens with 12 samples.

Results

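FGFR3, PGC, TM4SF1 and SDCBP2 are 4 genes picked from earlier results of these data because they had some of the largest differences between mutant and wild-type SPOP once androgen, interferon, keratin and histone genes were set aside. They are 4 of 12227 genes tested, and 8 of the 47323 array probes carry their names. SPOP is the substrate-binding adaptor of a CUL3 ubiquitin ligase, and both mutated phenylalanines lie in the pocket that holds its substrates. All samples were LNCaP-Abl cells, an androgen-independent derivative of the LNCaP prostate cancer line, kept in medium with charcoal-stripped serum and given doxycycline to induce the transfected construct. The constructs were SPOP F133L (2 arrays), SPOP F133V (2 arrays), SPOP F102C (2 arrays), wild-type SPOP (3 arrays) and control vector (3 arrays). The replicates are described as biological. The sources used here do not say whether a group was 1 clone or a pool, and p-values measure only the spread between these arrays. Of 2 SPOP probes 1 passed the filter, and its log2 level was 9.90 to 10.27 in mutants, 10.01 to 10.21 with wild-type SPOP and 10.15 to 10.23 with control vector. SPOP constructs minus control vector was −0.11 ± 0.08 (SE, limma adjusted p = 0.462). Whether that probe reads the introduced construct is unknown, so it does not check the group labels, which are used as given.

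FGFR3 is a receptor tyrosine kinase for fibroblast growth factors that signals through adaptor proteins to RAS and MAPK, and it is recurrently mutated in bladder cancer. PGC encodes progastricsin, the inactive precursor of an aspartic protease of the stomach that the prostate also secretes into seminal fluid. TM4SF1 is a multi-pass plasma membrane protein of the L6 family, known from carcinoma and endothelial cells. SDCBP2, or syntenin-2, is a PDZ domain protein that binds phosphoinositides and is the paralogue of syntenin-1, an adaptor of syndecans in vesicle traffic.

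The 4 genes fell into 2 patterns, and the description of all 4 as changed by the mutants did not hold for TM4SF1 and SDCBP2. FGFR3 and PGC were high in all 3 mutant groups, whereas wild-type SPOP lay at the level of control vector. With wild-type SPOP, TM4SF1 was lower and SDCBP2 higher than in every other group. The mutants lay nearer to control vector than to wild-type SPOP, and how near TM4SF1 lay depended on the scaling of the arrays. SDCBP2 in F102C cells lay between the 2 on the probe that stands for the gene. Another SDCBP2 probe, detected on all 12 arrays, had F102C at 5.755, between control vector at 5.224 and wild-type SPOP at 6.577. F133L and F133V also lay between them there, at 5.637 and 5.543. On a dimmer SDCBP2 probe F102C averaged 4.90 and control vector 4.88. That probe was detected on 0 of 2 F102C and 1 of 3 control arrays, so it cannot place F102C. The differences between mutants and wild-type SPOP chose these genes, so they are given as descriptions, and no test of them was made. Because the other comparisons with wild-type SPOP or of the mutants with control vector share arrays with that choice, they are also given without a p-value. With so few arrays, groups that do not overlap are common: mutants and wild-type SPOP did not overlap for 16.4% of the tested genes (mutants higher for 8.01%, lower for 8.4%), mutants and control vector for 15.5% (7.39% higher, 8.07% lower) and wild-type SPOP and control vector for 27.9% (13.9% higher, 14% lower).

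**Figure D1:**
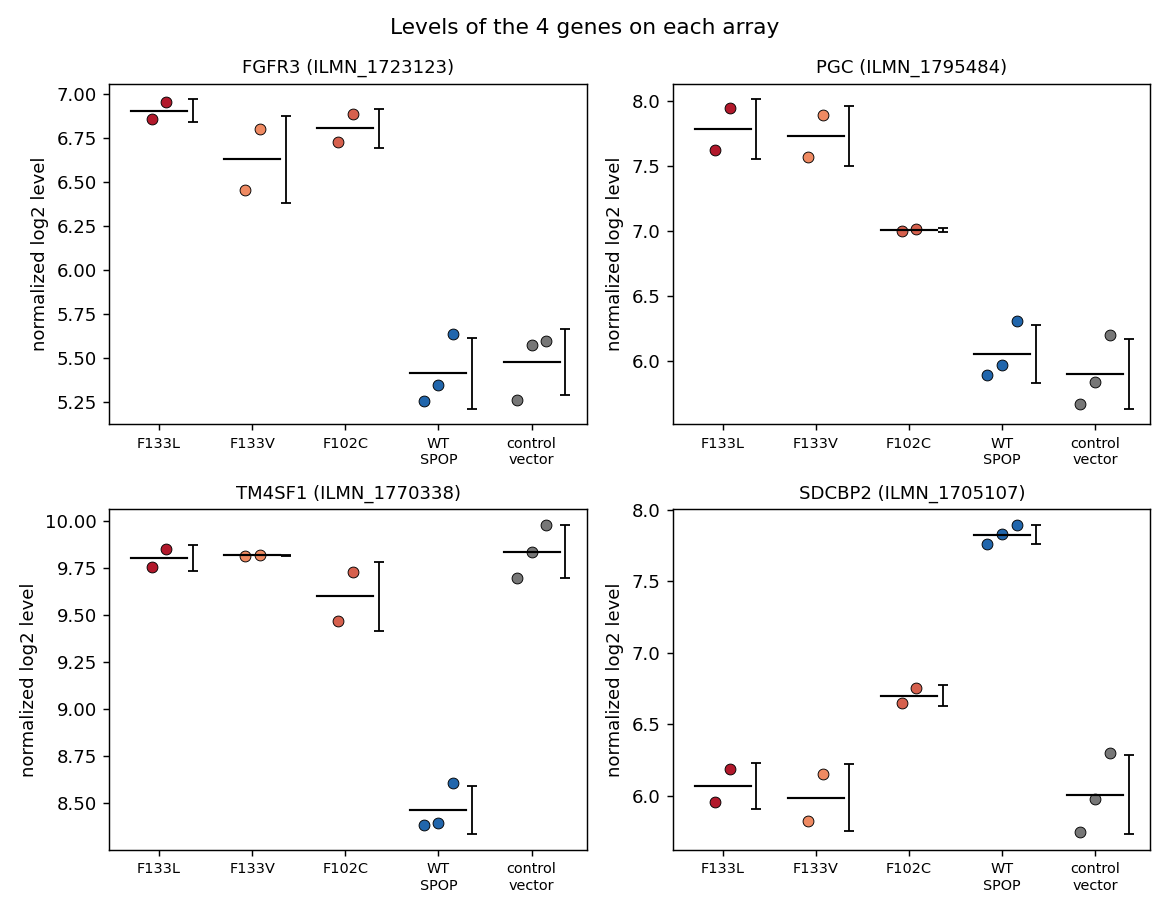
Normalized log2 level of the representing probe of each gene, 1 point per array, by construct; the horizontal line is the group mean and the bar beside it the SD (n = 2, 2, 2, 3 and 3). The y axes differ between panels and do not start at 0. FGFR3 and PGC are high in the mutants only, while TM4SF1 is lowest and SDCBP2 highest with wild-type SPOP, and SDCBP2 in F102C cells lies above control vector.

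The 300 bases around the start sites (250 before, 50 after, from RefSeq on GRCh38.p14) are shown for the 4 genes and for TM4SF18, a neighbouring gene of the same family with the same pattern. Each is written 5′ to 3′ along its gene. Capitals mark matches, on either strand, to the FOXA motif TGTTTAC, the ETS motif CCGGAAG, the TEAD motif GGAATG, the AP-1 motif TGANTCA, the GC box GGGCGG and the TATA box TATAAA. SDCBP2 has 3 annotated start sites, of which the most upstream is shown.
FGFR3 promoter, chr4:1793043-1793342, plus strand: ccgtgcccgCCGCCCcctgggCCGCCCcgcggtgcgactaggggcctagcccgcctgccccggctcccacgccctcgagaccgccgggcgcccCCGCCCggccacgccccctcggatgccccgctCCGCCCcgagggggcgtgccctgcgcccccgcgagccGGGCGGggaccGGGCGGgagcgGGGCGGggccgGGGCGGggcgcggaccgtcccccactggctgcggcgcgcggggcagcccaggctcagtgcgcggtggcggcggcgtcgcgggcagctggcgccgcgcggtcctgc
PGC promoter, chr6:41747348-41747647, minus strand: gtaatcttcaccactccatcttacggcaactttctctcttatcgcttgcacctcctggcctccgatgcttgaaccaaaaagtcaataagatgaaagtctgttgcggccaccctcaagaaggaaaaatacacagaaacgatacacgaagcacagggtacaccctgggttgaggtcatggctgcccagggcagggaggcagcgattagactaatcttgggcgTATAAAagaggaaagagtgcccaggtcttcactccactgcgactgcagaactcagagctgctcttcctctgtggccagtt
TM4SF1 promoter, chr3:149377600-149377899, minus strand: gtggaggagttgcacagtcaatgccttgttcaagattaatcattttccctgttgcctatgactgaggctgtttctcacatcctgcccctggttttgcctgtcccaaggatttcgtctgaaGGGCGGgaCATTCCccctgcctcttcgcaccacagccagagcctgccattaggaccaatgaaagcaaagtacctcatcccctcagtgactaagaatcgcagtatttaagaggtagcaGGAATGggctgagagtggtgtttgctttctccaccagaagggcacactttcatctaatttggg
TM4SF18 promoter, chr3:149333587-149333886, minus strand: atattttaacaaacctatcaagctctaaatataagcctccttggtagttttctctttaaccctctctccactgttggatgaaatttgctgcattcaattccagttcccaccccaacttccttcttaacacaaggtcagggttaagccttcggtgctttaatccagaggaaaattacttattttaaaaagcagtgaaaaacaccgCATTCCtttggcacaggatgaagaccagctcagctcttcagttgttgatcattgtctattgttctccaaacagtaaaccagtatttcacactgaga
SDCBP2 promoter, chr20:1329090-1329389, minus strand: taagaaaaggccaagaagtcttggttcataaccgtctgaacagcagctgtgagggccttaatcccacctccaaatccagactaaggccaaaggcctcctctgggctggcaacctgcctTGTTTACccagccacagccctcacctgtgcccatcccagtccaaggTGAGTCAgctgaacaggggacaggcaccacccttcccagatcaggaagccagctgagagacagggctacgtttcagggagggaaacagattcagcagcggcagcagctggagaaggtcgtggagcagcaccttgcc

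The promoters of FGFR3 and PGC, the pair high in the mutants, had little in common. The FGFR3 window was 86.3% G or C, at percentile 99.9 of 35116 promoters, and held 8 GC boxes. The PGC window was 50.7% G or C and held a TATA box that begins 30 bases before the start site, and none of the other motifs. A GC box was present in 45% of all promoters and a TATA box in 11.5%. The TM4SF1 window held 2 TEAD motifs and 1 GC box, and that of TM4SF18 held 1 TEAD motif, which 14% of all promoters had. The SDCBP2 window held a FOXA motif, present in 3.42% of promoters, and an AP-1 motif, present in 7.71%. The windows at its other 2 start sites held neither, 1 of them having a GC box and the other none of the motifs, and which start site these cells use was not tested. These matches describe letters only, and binding of any factor was not measured.

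FGFR3 was represented by the probe for NM_022965, with a mean intensity of 168.8 over the 12 arrays. The mean normalized log2 level of that probe was at percentile 35.9 among the tested genes. Its normalized log2 levels were 6.95 and 6.86 in F133L, 6.46 and 6.80 in F133V and 6.73 and 6.89 in F102C cells. They were 5.25, 5.35 and 5.64 with wild-type SPOP and 5.26, 5.57 and 5.60 with control vector. Every mutant array lay above every wild-type and control array, and the wild-type and control arrays overlapped. The 6 mutant arrays averaged 6.78 ± 0.18, wild-type SPOP 5.41 ± 0.20 (SD, n = 3) and control vector 5.48 ± 0.19 (SD, n = 3). Mutants minus wild-type SPOP was 1.37 ± 0.12 (SE), a 2.58-fold difference, mutants minus control vector was 1.30 ± 0.12, and wild-type SPOP minus control vector was −0.06 ± 0.14.

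The probe was dim on every array, at 1.07 to 1.62 times the lowest intensity called detected there. On the deposited scale the intensities were 206.6 and 203.5 in F133L, 140.4 and 181.5 in F133V and 194.5 and 207 in F102C cells. They were 146.3, 147.7 and 135.6 with wild-type SPOP and 163.9, 151.1 and 146.8 with control vector. The F133V array at 140.4 lay below every control array on this scale. It was also the array with the lowest median intensity of the series, 109 against 114.6 to 130.4 on the others. Without background correction the difference between mutants and wild-type SPOP was 0.57, and in the authors' deposited processed values it was 0.36.

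The second FGFR3 probe, for NM_000142, did not show the mutant pattern. Its levels averaged 5.74 ± 0.22 in mutants (SD, n = 6), 5.51 ± 0.18 with wild-type SPOP and 5.86 ± 0.04 with control vector (SD, n = 3 each). Mutants minus wild-type SPOP was 0.23 ± 0.10, with 3 of 6 mutant arrays above all wild-type arrays, and mutants minus control vector was −0.12 ± 0.10. Over the 12 arrays, which share their groups, r between the 2 probes was 0.099. This probe was as dim, with a mean intensity of 150, at 1.07 to 1.29 times the detection floor. Of 13 genes that differed by over 1 log2 unit between mutants and wild-type SPOP and had another probe past the filter, 5 had another probe that moved less than 50% as far the same way. The FGFR3 results below are those of the first probe, and which transcripts each probe reads was not tested.

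**Figure D2:**
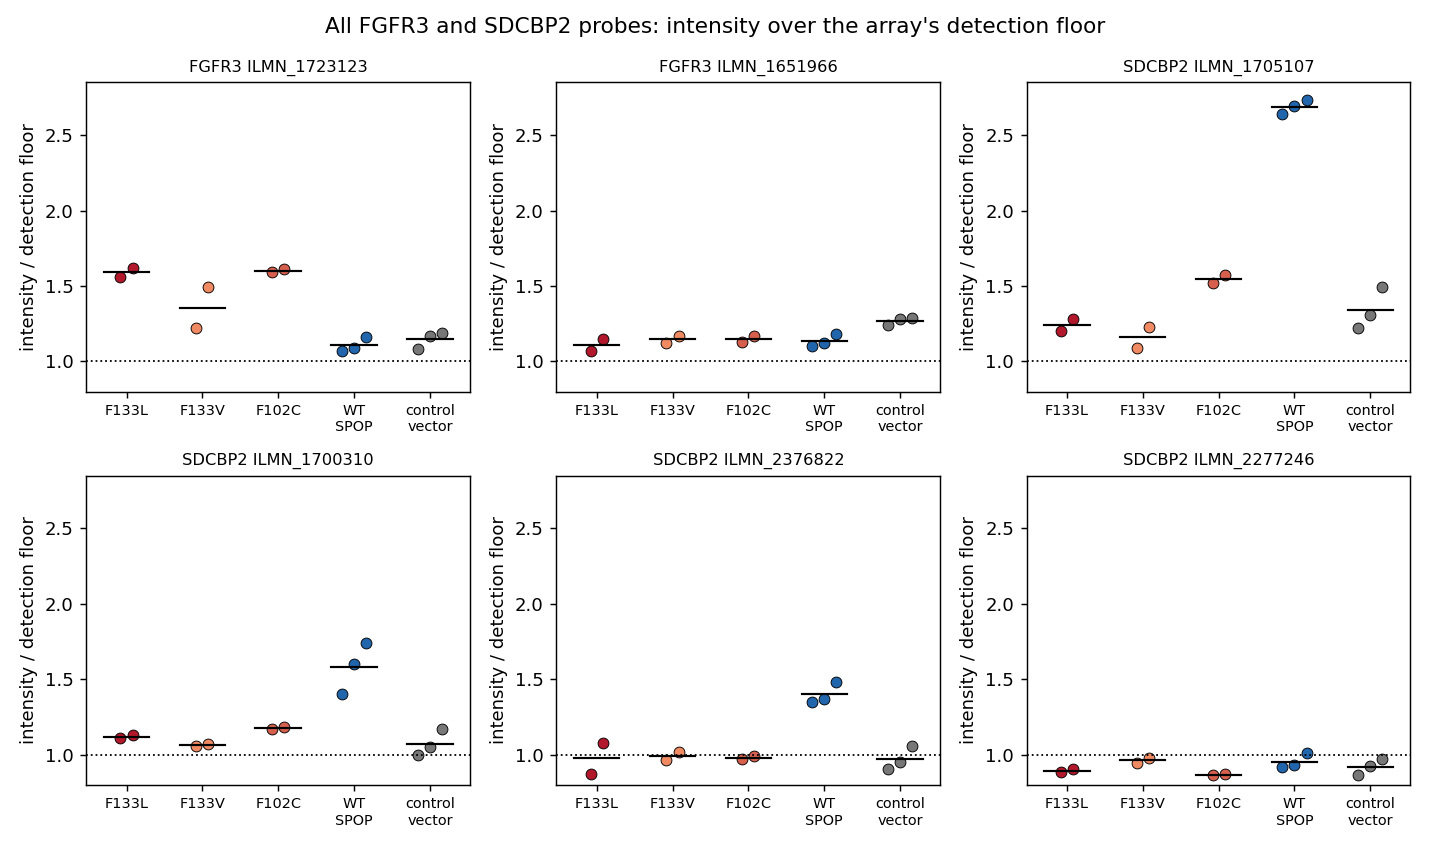
Deposited intensity divided by the lowest intensity with a detection p-value under 0.05 on the same array (dotted line at 1), for the 2 FGFR3 and 4 SDCBP2 probes; points are arrays and lines group means, and the y axis does not start at 0. The 2 FGFR3 probes have different patterns, whereas 3 of 4 SDCBP2 probes are highest with wild-type SPOP and the other lies near 1 throughout.

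PGC had 1 probe, of mean intensity 209.3, whose mean normalized log2 level was at percentile 44.4 of the tested genes. Its log2 levels were 7.62 and 7.95 in F133L, 7.90 and 7.57 in F133V and 7.0 and 7.02 in F102C cells. They were 5.89, 6.31 and 5.97 with wild-type SPOP and 5.67, 6.20 and 5.84 with control vector. All mutant arrays lay above all others, with both F102C arrays lowest among the mutants, while wild-type and control arrays overlapped. Mutants averaged 7.51 ± 0.41 (SD, n = 6), wild-type SPOP 6.06 ± 0.22 and control vector 5.91 ± 0.27 (SD, n = 3 each). Mutants minus wild-type SPOP was 1.45 ± 0.14 (SE), or 2.74-fold, mutants minus control vector was 1.60 ± 0.14, or 3.04-fold, and wild-type SPOP minus control vector was 0.15 ± 0.16. The difference between mutants and wild-type SPOP was 0.78 without background correction and 0.53 in the authors' deposited processed values.

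TM4SF1 was the brightest of the 4 genes, with a mean intensity of 838.9 and values 3.66 to 10.7 times the detection floor. Its log2 levels were 9.85 and 9.76 in F133L, 9.82 and 9.82 in F133V and 9.73 and 9.47 in F102C cells. They were 8.38, 8.61 and 8.39 with wild-type SPOP and 9.98, 9.70 and 9.83 with control vector. The 3 wild-type arrays lay below all others, and mutant and control arrays overlapped. Wild-type SPOP minus control vector was −1.38 ± 0.11 (SE), a level 2.59-fold lower in wild-type SPOP cells. Mutants minus wild-type SPOP was 1.28 ± 0.10, and mutants minus control vector was −0.10 ± 0.10. With arrays scaled to equal medians of all probes, mutants minus control vector was −0.59 and all 6 mutant arrays lay below all 3 control arrays. The deposited intensities had that order too, at 908.2 and 876 in F133L, 568.1 and 797 in F133V, 816.7 and 835.4 in F102C cells, 492.4, 503.3 and 464.8 with wild-type SPOP and 1477, 1072 and 1256 with control vector. Wild-type arrays were lowest on each of these scales.

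SDCBP2 was represented by a probe of mean intensity 214, for NM_015685. Its log2 levels were 6.18 and 5.95 in F133L, 5.82 and 6.15 in F133V and 6.75 and 6.65 in F102C cells. They were 7.76, 7.89 and 7.83 with wild-type SPOP and 6.30, 5.75 and 5.98 with control vector. The wild-type arrays lay above all others, both F102C arrays lay between them and the rest, and the F133L and F133V arrays overlapped control vector. Wild-type SPOP minus control vector was 1.82 ± 0.14 (SE), or 3.53-fold. Mutants minus wild-type SPOP was −1.57 ± 0.12, and mutants minus control vector was 0.24 ± 0.12, which turned to −0.1 when arrays were scaled to equal medians of all probes. Mutants minus wild-type SPOP was −0.89 without background correction and −0.62 in the authors' deposited processed values.

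The other SDCBP2 probes that passed the filter were also highest with wild-type SPOP, and differed from the first in how the mutants stood to control vector. The probe for NM_080489, detected on all 12 arrays, differed by −0.93 ± 0.15 between mutants and wild-type SPOP and by 1.35 ± 0.18 between wild-type SPOP and control vector. Its mutants minus control vector was 0.42 ± 0.15, with 5 of 6 mutant arrays above all control arrays, against 2 of 6 on the first probe. A further NM_015685 probe gave −1.27 ± 0.18 and 1.36 ± 0.21 for the same differences, but was detected on 2 of 6 mutant, 3 of 3 wild-type and 1 of 3 control arrays. On it mutants minus control vector was 0.09 ± 0.18. F102C averaged 4.90 there, below both other mutants, but was detected on 0 of 2 arrays. A remaining NM_015685 probe was detected on 1 array and left out.

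**Figure D3:**
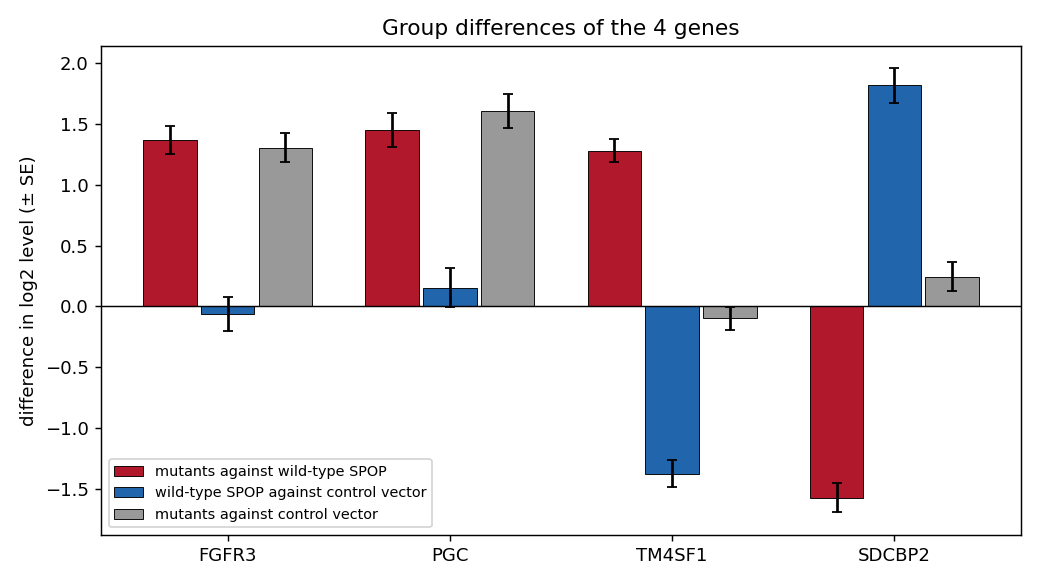
Differences of group means in log2 level (y axis; bars show SE from the fit across all genes) for the 4 genes, with mutants against wild-type SPOP, wild-type SPOP against control vector and mutants against control vector side by side. FGFR3 and PGC have small bars for wild-type SPOP against control vector, and TM4SF1 and SDCBP2 have small bars for mutants against control vector. The 3 differences share arrays.

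The size of each difference can be set against all genes without a test. Ranked by size for wild-type SPOP minus control vector, SDCBP2 was 23rd and TM4SF1 35th of 12227 genes, while PGC was 5782nd and FGFR3 9239th. For mutants minus control vector, PGC was 27th and FGFR3 41st, while SDCBP2 was 3246th and TM4SF1 7838th. Between mutants and wild-type SPOP, PGC, FGFR3 and TM4SF1 were 5th, 7th and 10th among the rises, with ASCL2 next below TM4SF1 at 1.27. SDCBP2 was the 2nd largest fall there, between IFIT2 at −1.63 and CAMK2N1 at −1.31. Over the 12 arrays r was 0.90 between FGFR3 and PGC and −0.93 between TM4SF1 and SDCBP2, and its size was 0.54 or less for the pairs across the patterns. Since arrays of a group share its level, these r restate the group levels above and add no evidence for the 2 patterns.

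The average of the 9 SPOP arrays against the 3 control arrays is a comparison that did not enter the choice of genes. A gene that differs between mutants and wild-type SPOP, with 1 of them at the control level, also shifts in this average. All 4 genes passed limma's moderated test at an adjusted p under 0.05 (Benjamini-Hochberg over 12227 genes), as did 8.83% of all genes (4.11% higher with the constructs, 4.72% lower). FGFR3 was higher with the SPOP constructs by 0.85 ± 0.11 (SE; limma adjusted p = 0.000708) and PGC by 1.12 ± 0.13 (adjusted p = 0.000307). SDCBP2 was higher by 0.77 ± 0.12 (adjusted p = 0.0017), and TM4SF1 was lower at −0.52 ± 0.09 (adjusted p = 0.00415). The number of detected probes was also lower with the SPOP constructs, at 17485 to 19543 per array, than with control vector, at 19272 to 19677. With that number as a covariate, the difference was 0.86 for FGFR3 (adjusted p = 0.0914) and 0.7 for SDCBP2 (adjusted p = 0.19), so both lost their call at nearly the same size, and the calls over all genes numbered 119, against 1080 without it. The second FGFR3 probe was not called in this comparison, at −0.19 ± 0.10 (limma adjusted p = 0.263 over all kept probes).

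The 3 mutants were compared with each other by tests that the choice of genes did not use. PGC averaged 7.79 ± 0.23 in F133L, 7.73 ± 0.23 in F133V and 7.01 ± 0.01 in F102C cells (SD, n = 2 each). The F133 mutants thus stood 0.75 ± 0.17 (SE) above F102C without overlap, which did not pass limma's test (adjusted p = 0.138). SDCBP2 averaged 6.07 ± 0.16 in F133L, 5.99 ± 0.24 in F133V and 6.70 ± 0.08 in F102C cells (SD, n = 2 each). Its F133 mutants stood at −0.67 ± 0.15 relative to F102C, again without overlap and not called (limma adjusted p = 0.133). The difference was smaller on the other kept SDCBP2 probes. It was −0.16 ± 0.19 on the NM_080489 probe, without overlap (limma adjusted p = 0.85 over all kept probes). On the further NM_015685 probe it was 0.10 ± 0.23, with overlap (limma adjusted p = 0.936). On the probes that stand for these genes, F102C was in both the mutant group nearest to wild-type SPOP.

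For FGFR3 the F133 mutants differed from F102C by −0.04 ± 0.15 and for TM4SF1 by 0.21 ± 0.12, with limma adjusted p of 0.96 and 0.59. F133L minus F133V was 0.28 ± 0.17 for FGFR3, 0.05 ± 0.20 for PGC, −0.01 ± 0.13 for TM4SF1 and 0.08 ± 0.17 for SDCBP2, and the limma adjusted p was 0.599 or higher. The F test over the 3 mutants called none of the 4 genes, with adjusted p of 0.683, 0.169, 0.645 and 0.156 in the same order. These tests called few genes at all. F133 mutants against F102C had 0 calls with limma (0%, with 1204 genes at an unadjusted p under 0.05), F133L against F133V had 1 (THAP8, 0.00818%) and the F test had 3 (DSE, THAP8 and RGS2, 0.0245%). The PGC difference from F102C was called under 4 of the alternative processings, among them no background correction (0.47, limma adjusted p = 0.00685, with a range of 0.00685 to 0.635 over the alternatives).

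Genes known to work with FGFR3 were counted in mutants against wild-type SPOP, where limma called 11.8% of all genes (5.57% higher, 6.18% lower) and the median of all genes was −0.01. Of 3 other FGF receptors and coreceptors tested, 1 rose, with a median of 0.06. The riser was KLB, the beta-klotho coreceptor, at 0.41 ± 0.11 (SE, limma adjusted p = 0.0389). FGFRL1, a receptor-like protein without a kinase, differed by 0.06 ± 0.10 (adjusted p = 0.729), and FGFR4 by −0.22 ± 0.14 (adjusted p = 0.336, detected on 3 arrays). FGFR1 and FGFR2 were detected on 0 arrays. Of 5 FGF ligands 1 rose, with a median of 0.05: FGF18, by 0.44 ± 0.10 (limma adjusted p = 0.0187).

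Of 17 adaptors and RAS-MAPK feedback and target genes 3 were called, all of them higher in mutants (median 0.12), but with equal medians of all probes 2 were higher and 4 lower. DUSP4, a phosphatase of MAP kinases, had levels of 6.54 and 6.21 in F133L, 6.17 and 6.40 in F133V and 6.38 and 6.51 in F102C cells. It had 5.43, 5.49 and 5.29 with wild-type SPOP and 5.61, 5.54 and 5.73 with control vector. All mutant arrays lay above the rest, by 0.96 ± 0.10 over wild-type SPOP (SE, limma adjusted p = 0.000177). SPHK1, a sphingosine kinase, rose by 0.62 ± 0.11 (adjusted p = 0.00515), and its mean of 5.86 in mutants was near that of 5.76 with control vector. SPRY2, an inhibitor of receptor tyrosine kinase signalling, rose by 0.35 ± 0.10 (adjusted p = 0.0386). Unlike FGFR3, its mean of 6.39 in mutants was below that of 6.57 with control vector, and wild-type SPOP was lowest at 6.04. DUSP6, a phosphatase of ERK, differed by 0.00 (adjusted p = 0.995), and the early response gene EGR1 by −0.49 (adjusted p = 0.063). At an unadjusted p under 0.05, 4 of the 17 were higher and 2 lower. Of 12 fits that each left out 1 array, 8 lost the call of KLB (adjusted p up to 0.135), 8 that of SPRY2 (up to 0.164) and 2 that of FGF18 (up to 0.0902). Of 12 alternative processings, 6 lost KLB (up to 0.522), 6 SPRY2 (up to 0.817), 4 FGF18 (up to 0.784), 1 SPHK1 (0.119) and 0 DUSP4.

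For PGC, none of 5 other aspartic proteases was called by limma or passed an unadjusted p of 0.05 (median 0.09). The lysosomal protease CTSD differed by −0.23 ± 0.12 (limma adjusted p = 0.251) and alone was detected on all 12 arrays. PGA3 and BACE2 were detected on 8 arrays each, BACE1 on 3 and CTSE on 2, so changes in these could hardly be seen. Of 6 genes of gastric chief and mucous cells 2 rose, with a median of 0.25. These were the trefoil factors TFF1 and TFF2. TFF1 rose by 0.57 ± 0.11 (limma adjusted p = 0.00623, lost under 1 of 11 alternative processings at 0.119). It was detected on 5 of 6 mutant, 0 of 3 wild-type and 0 of 3 control arrays. TFF1 thus passed the filter only through the mutants, where it was high, and its call adds no support. TFF2 rose by 0.37 ± 0.11 (adjusted p = 0.0445, lost in 9 of 12 fits without 1 array, up to 0.174, and under 4 of 12 processings, up to 0.909). Its mean was 6.95 in mutants, 6.59 with wild-type SPOP and 7.42 with control vector, so unlike PGC it was highest with control vector. Of 10 other prostate secretory genes 3 rose and 1 fell (median 0.07). KLK3, prostate-specific antigen, rose by 1.44 ± 0.10 and ACP3, prostatic acid phosphatase, by 0.86 ± 0.09 (limma adjusted p = 0.000177). MSMB, a seminal plasma protein, rose by 0.50 ± 0.08 (limma adjusted p = 0.00268, lost under 1 of 12 processings at 0.448). Unlike PGC, its mean of 7.437 in mutants lay nearer to control vector, at 7.292, than to wild-type SPOP, at 6.935. The fall was FOLH1, prostate-specific membrane antigen, at −0.48 ± 0.10 (adjusted p = 0.0112, lost in 2 of 12 fits without 1 array, up to 0.0654, and under 2 of 12 processings, up to 0.136). KLK3 was already known to move in these data and adds no independent evidence. Of 4 genes of luminal urothelium, where FGFR3 is known to act, 1 rose (median 0.06), the keratin KRT19, by 1.46. That list held 13 genes, of which 5 were tested, FGFR3 included, and UPK1B was detected on 3 arrays only. Keratins were set aside when the 4 genes were chosen, so KRT19 adds no independent evidence either.

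For TM4SF1, 1 other L6 family gene was tested. TM4SF18 had levels of 6.56 and 6.62 in F133L, 6.96 and 6.85 in F133V and 6.54 and 6.53 in F102C cells, 5.61, 5.83 and 5.99 with wild-type SPOP and 6.70, 6.86 and 6.61 with control vector. As for TM4SF1, its 3 wild-type arrays lay below all others, and it rose by 0.87 ± 0.10 in mutants over wild-type SPOP (SE, limma adjusted p = 0.000262), a call kept under all 24 alternatives. Of 16 tetraspanins 1 rose and 0 fell (median −0.02), but with equal medians of all probes 0 rose and 6 fell, and without background correction 4 rose and 1 fell. The riser was CD9, a surface partner of integrins, by 0.33 ± 0.07 (limma adjusted p = 0.0105, lost under 3 of 12 processings, up to 0.949). Of a list of 10 tested YAP and TEAD genes, which holds YAP1 and TEAD1 themselves beside target genes, none was called by limma (median 0.05). At an unadjusted p under 0.05, 1 was higher and 1 lower. The lowest adjusted p were those of AMOTL1 (0.30 ± 0.10, limma adjusted p = 0.0766, detected on 2 mutant arrays only) and YAP1 (−0.24 ± 0.10, adjusted p = 0.145).

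For SDCBP2, of 13 syntenins, syndecans and exosome partners 3 rose and 3 fell, with a median of 0.00, but 0 rose and 6 fell with equal medians of all probes and 3 rose and 6 fell without background correction. The paralogue SDCBP differed by −0.31 ± 0.11 (limma adjusted p = 0.0881). The 2 RAB27 GTPases of vesicle secretion moved apart: RAB27A rose by 0.62 ± 0.11 (adjusted p = 0.00592) and RAB27B was lower at −0.55 ± 0.08 (adjusted p = 0.00122). The syndecans did so too, with SDC1 higher by 0.48 ± 0.08 (adjusted p = 0.0031) and SDC4 lower at −0.50 ± 0.12 (adjusted p = 0.0236, up to 0.0851 with 1 array left out). In both, the mutant mean lay near control vector. SDC1 averaged 9.493 in mutants, 9.008 with wild-type SPOP and 9.593 with control vector. SDC4 averaged 7.125, 7.625 and 7.232 in the same order. The ESCRT genes HGS and VPS4B differed by 0.28 and −0.29 (adjusted p of 0.0389 and 0.0284), and lost their call in 6 and 5 of the 12 fits without 1 array, while HGS turned to −0.07 with equal medians of all probes. Alternative processings lost RAB27A in 2 of 12 (adjusted p up to 0.107), SDC1 in 2 (up to 0.531) and RAB27B in 0.

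Over the 24 alternatives the counts of the other lists varied too. FGF receptors and coreceptors had 0 to 1 higher, and FGF ligands 0 to 2 higher. Aspartic proteases had 0 to 2 higher and 0 to 1 lower, and prostate secretory genes 2 to 5 higher and 0 to 1 lower. Gastric genes had 0 to 4 higher, and the list of YAP, TEAD and their targets 0 to 1 higher and 0 to 2 lower.

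**Figure D4:**
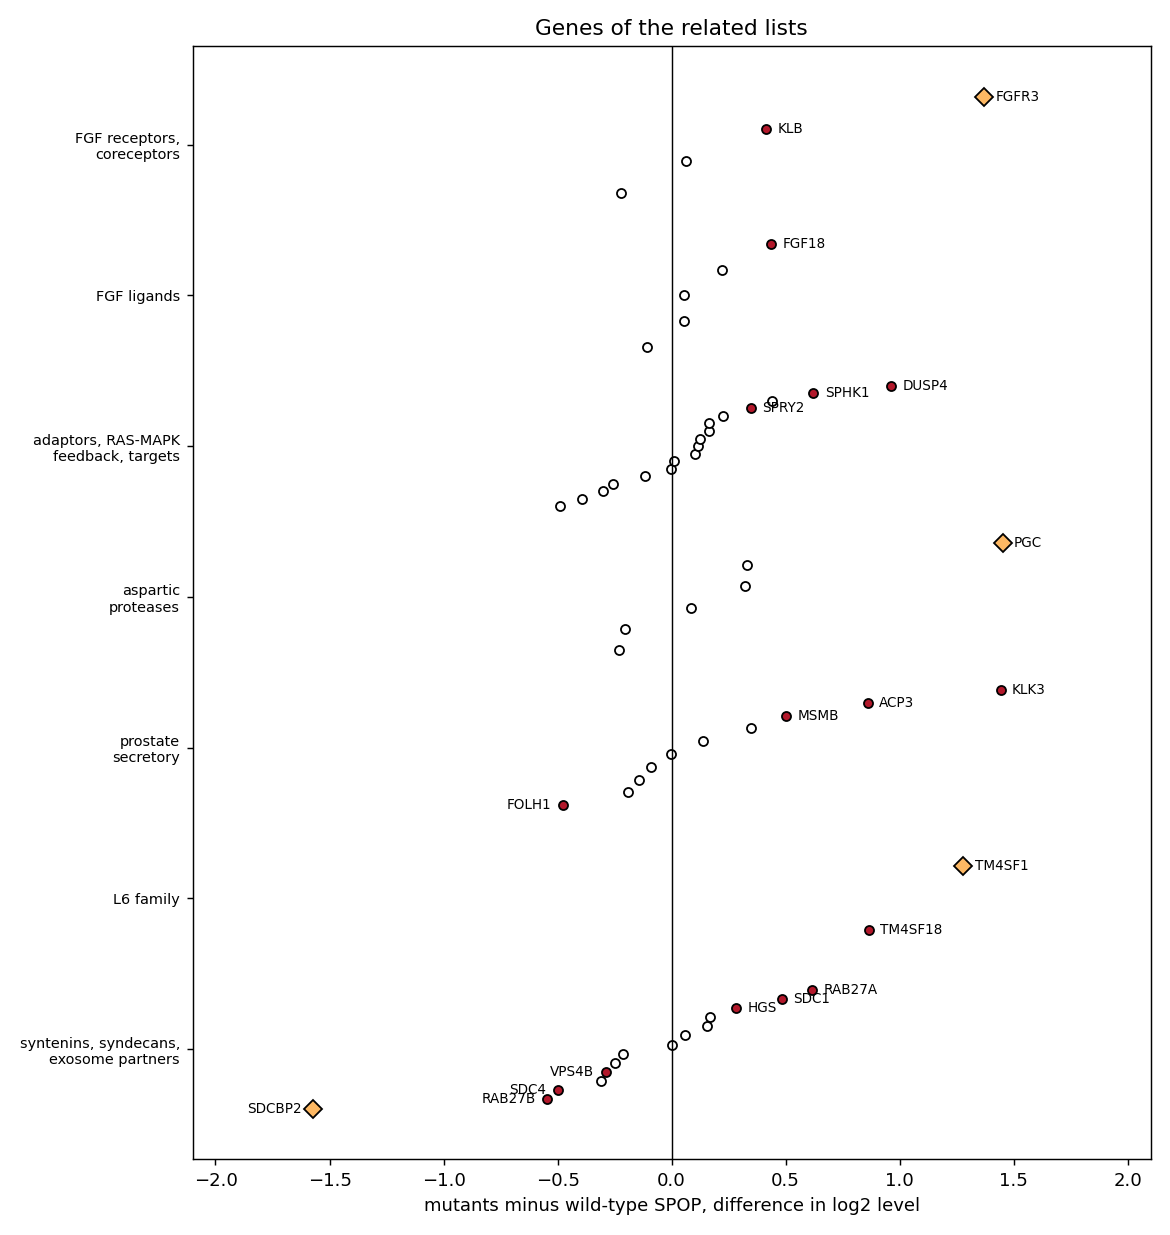
Difference in log2 level between mutants and wild-type SPOP (x axis) for the tested genes of 7 related lists, 1 point per gene; filled points pass limma's adjusted p of 0.05, open points do not, and diamonds are the 4 genes themselves, chosen on this difference. Most list genes lie within 0.5 of 0, while DUSP4, KLK3, ACP3 and TM4SF18 lie farther to the right. SPHK1 and RAB27A lie at 0.62 and RAB27B at −0.55, with MSMB at 0.50 and SDC4 at −0.50.

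The nearest tested genes on each side of the 4 in the genome were also compared between mutants and wild-type SPOP. TM4SF18, FAM110A, SRXN1 and FKBP1A were called and the other neighbours were not, while limma called 11.8% of all genes there. Whether neighbours were called more often than other genes was not tested. The 4 tested neighbours of FGFR3 on chromosome 4 (TACC3, TMEM129, LETM1 and NSD2) differed by −0.18 to 0.19, and those of PGC on chromosome 6 (TFEB, MDFI, FRS3 and PRICKLE4) by −0.01 to 0.17. Around TM4SF1 on chromosome 3, the adjacent TM4SF18 was called, and HPS3, COMMD2 and RNF13 were not (−0.10 to 0.08). The nearest tested genes to SDCBP2 on chromosome 20 lay farther off on the side of FAM110A and SRXN1, with 7 and 10 annotated genes between, while FKBP1A was adjacent. FAM110A was called at 0.34 ± 0.09 (limma adjusted p = 0.0309, but −0.03 with equal medians of all probes), SRXN1 at −0.33 ± 0.09 (adjusted p = 0.0429) and FKBP1A at −0.41 ± 0.12 (adjusted p = 0.042). Each of those 3 calls was lost in at least 5 of the 12 fits without 1 array. NSFL1C was not called (−0.07, adjusted p = 0.65).

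The genes most like each of the 4, by Pearson r of log2 level over the 12 arrays, are given as a description, since arrays of a group share its level. Nearest to FGFR3 were RUSC1 (r = 0.985), TCEAL3, ANKRD9, the GTPase RHOU and LRP3 (r = 0.966). Of these RHOU had the largest difference between mutants and wild-type SPOP, 1.11. Nearest to PGC were the kinase SGK1 (r = 0.975), the transcription elongation factor PAF1, KRT19, the calcium sensor HPCAL1 and the coronin CORO1B (r = 0.953), with SGK1 differing by 1.86. Nearest to TM4SF1 were LONRF1 (r = 0.940), the surface glycoprotein CD24, the mitochondrial import receptor TOMM20, BOLA2, which has near-identical copies, and TMEM70 (r = 0.928). Nearest to SDCBP2 were C1orf53 (r = 0.956), the cancer-testis antigen PRAME, the phosphatase PTPN13, ATOSA and PPP2R1B (r = 0.922). The number of genes with r over 0.9 was 63 for FGFR3, 68 for PGC, 26 for TM4SF1 and 7 for SDCBP2.

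**Figure D5:**
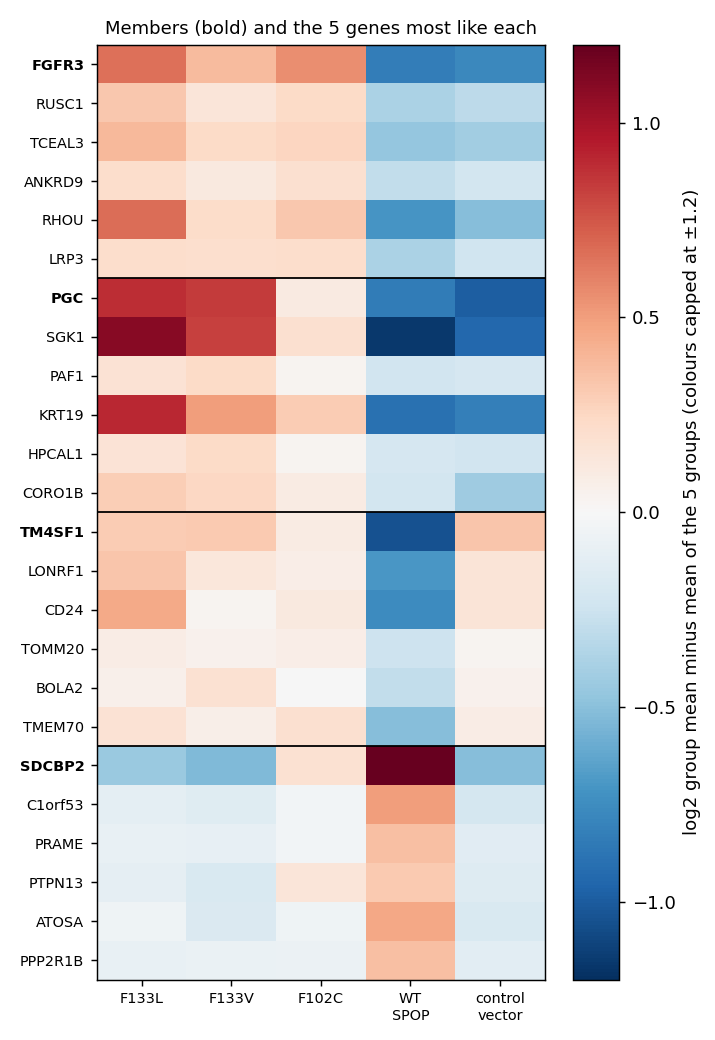
Group mean log2 level minus the mean of the 5 groups (colour, red higher, blue lower, capped at 1.2 either way) for the 4 genes in bold and the 5 genes most like each (rows) in each construct (columns). The first 2 blocks differ in the mutants, and the last 2 mainly in wild-type SPOP, with smaller differences in most of the similar genes than in the gene they follow.

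Median intensity was 109 to 130.4 per array, and r between arrays was 0.9903 to 0.9945 within groups and 0.9833 to 0.9924 between them. Luminal prostate markers were present: 10 of 12 were tested and 9 of these were detected on all arrays. Their summed normalized signal was 16460 to 17870 in mutants, 18550 to 18990 with wild-type SPOP and 15830 to 16610 with control vector. The sum hides opposite moves. In mutants against wild-type SPOP limma called KLK3 and KRT18 higher and FOLH1 and STEAP2 lower (11.8% of all genes called). With SPOP constructs against control vector 6 of the 10 were called higher and 0 lower (8.83% of all genes called). Of 7 basal or other carcinoma markers 3 were tested. They summed to 377.3 to 426.9 in mutants, 369.5 to 407.4 with wild-type SPOP and 667.8 to 776.8 with control vector. Among them VIM was lower with the SPOP constructs than with control vector, at −1.18 ± 0.09 (SE, limma adjusted p = 5.81e-06). ITGA6 and EGFR differed there by −0.05 and −0.09 (adjusted p of 0.849 and 0.634), and KRT5, KRT14 and CD44 were detected on 0 arrays. Of 7 neuroendocrine markers 2 were tested, summing to 522.6 to 588.6 in mutants, 418.2 to 476.6 with wild-type SPOP and 263.6 to 307.5 with control vector. ENO2 made up most of that sum, and CHGA and SYP were detected on 0 arrays. None of 7 fibroblast markers passed the filter, and of 6 immune markers 2 did, CD68 and CD14, summing to 213.5 to 293 in mutants, 166.6 to 216.9 with wild-type SPOP and 189.3 to 196.8 with control vector. PTPRC, the general leukocyte marker, was detected on 1 array. These sums move with the groups of the comparisons above, and their part in the results was not tested. In such bulk samples fewer cells with a transcript and less of it per cell cannot be told apart.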

How the data were processed

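RNA from 12 samples was measured on Illumina bead arrays of 47323 probes. Per the file headers, the authors deposited for each array an average linear intensity of every probe, together with its detection p-value. They also deposited processed values on a log2 scale with equal medians of 7.53, made with lumi per the submitters' processing notes and used here only as an alternative. Any background subtraction before deposit, and lumi's version and settings, were not given in the sources used here.

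Intensities were corrected and quantile normalized with neqc (limma 3.58.1, R 4.3.3; offset 16, negative controls inferred from detection p-values). Probes with a detection p under 0.05 on at least 2 arrays were kept (23133). Of all probes, 30113 had 1 gene symbol, 8 several and 17202 none, and 30074 matched the gene table of GRCh38.p14. The probe of highest mean level stood for each of 12227 genes. Detection floor means the lowest intensity with a detection p under 0.05 on an array. Samples were grouped by title. A model of 5 group means was fitted to all arrays and genes with lmFit and eBayes, and p-values were adjusted by Benjamini-Hochberg with a threshold of 0.05. The mutant groups weighed equally in their mean, and each of the 9 SPOP arrays weighed equally against control vector.

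The 4 genes and all lists were chosen with earlier results of these data known. Beside the 4 genes, the text names the 5 genes most like each, list genes of lowest p (up to 4), close family members and the 2 nearest tested neighbours on each side. DUSP6, EGR1, SPOP, the genes called among mutants and those that border a rank were named after their values were seen. On simulated data, limma found 99% of simulated log2 changes of 1 and 67% of those of 0.5 in mutants against wild-type SPOP, 100% and 74% for SPOP constructs against control vector, and 95% and 18% for the F test among mutants.

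Same-numbered replicates did not deviate together (r −0.06 to 0.04 over 21 pairs, 0 over 0.1), so the numbers were not taken as pairs. Alternatives changed the background correction, normalization, filter, probe choice, variance model, array weights, a covariate, a block and 1 array at a time. No slide is named in the files, and the slide was not used. Some items are not reported here.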

Additional observations from a re-analysis of the deposited data

How the results depend on the processing

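Every alternative kept the direction of the 4 genes between mutants and wild-type SPOP. Leaving out 1 array gave 1.29 to 1.48 for FGFR3, 1.37 to 1.58 for PGC, 1.24 to 1.35 for TM4SF1 and −1.63 to −1.52 for SDCBP2. In the order FGFR3, PGC, TM4SF1, SDCBP2, this difference was 0.57, 0.78, 1.08 and −0.89 without background correction, 1.11, 1.11, 0.92 and −1.86 with equal medians of all probes, and 0.36, 0.53, 0.96 and −0.62 in the authors' processed values. An offset of 50 gave 0.91 for FGFR3, 1.11 for PGC and −1.23 for SDCBP2, the mean of a gene's kept probes gave 0.8 for FGFR3 and −1.26 for SDCBP2, and the covariate of detected probes gave 1.13 for TM4SF1. With equal medians of all probes the median of all genes was −0.26 in mutants against wild-type SPOP and −0.37 in mutants against control vector, against −0.01 in each as reported. There, SDCBP2 in mutants against control vector turned to −0.1, and TM4SF1 was −0.59 with no overlap. Under it the neighbour FAM110A turned to −0.03 and HGS to −0.07. Dim probes limit the sizes for FGFR3, PGC and SDCBP2, and no cause was tested.

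SPOP constructs against control vector kept all 4 calls except with the covariate of detected probes, for FGFR3 (0.86, limma adjusted p = 0.0914) and SDCBP2 (0.7, adjusted p = 0.19). PGC between F133 mutants and F102C passed without background correction (0.47, limma adjusted p = 0.00685), with an offset of 50 (0.62, 0.0273), in the authors' processed values (0.35, 0.0464) and with a trended, robust variance (0.75, 0.0265). Its F test passed without background correction (0.0171). For SDCBP2 the same comparison (−0.83, adjusted p = 0.0284) and the F test (0.0249) passed with equal medians of all probes.

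Counts of called genes moved more. Mutants against wild-type SPOP (1437) gave 4616 with equal medians of all probes, 2204 with equal medians of detected probes and 308 with the covariate, and 601 to 1437 with 1 array left out. SPOP constructs against control vector (1080) gave 1759 without background correction, 5214 and 1967 with the equal medians of all and of detected probes, 1659 in the authors' values, 1660 with the trended variance and 119 with the covariate, and 584 to 1111 with 1 array left out. F133 mutants against F102C (0) gave 54 without background correction, 31 with the offset of 50, 38 with equal medians of all probes, 28 in the authors' values, 10 with the stricter filter, 5 with mean probes and 43 with the trended variance. F133L against F133V (1) gave 3, 2, 19 and 0 without background correction, with the offset and with the 2 equal medians, 7 without a filter, 6 with the stricter one, 8 with mean probes, 0 with array weights or the covariate, and 0 to 59 with 1 array left out. The F test (3) gave 44, 22, 339 and 0 for the same first 4, 17 in the authors' values, 15 with the stricter filter, 16 with mean probes, 57 with the trended variance, 0 with the covariate, and 0 to 36 with 1 array left out.

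With the replicate number as a block, 672 genes were called in mutants against wild-type SPOP and 0 by the F test, and the 4 genes kept their calls against control vector (FGFR3 at 0.79, limma adjusted p = 0.00244). An alternative with the slide as a block was not run.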
